A study of Mus musculus with 5 samples.

Results

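The BCL2 family decides whether the outer membrane of the mitochondrion stays closed or is opened during apoptosis. Described here are 10 of its genes among the 54838 genes listed for each library: the pro-survival genes Bcl2, Bcl2l1, Bcl2l2 and Mcl1, the pore-forming effectors Bak1, Bax and Bok, and the BH3-only genes Bid, Bcl2l11 and Bbc3. The genes were chosen by name, with earlier results of these data known, and matched through their Ensembl identifiers to GENCODE M21. All 10 were found, and all 10 passed the filter on low reads.

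RNA came from N2a, a mouse neuroblastoma line. One group of cells received a control siRNA (siCtrl, 2 libraries) and the other an siRNA against Ewsr1 (siEwsr1, 3 libraries), which encodes an RNA- and DNA-binding protein. Both groups went through the same lipid transfection in 2 pulses, from 50000 cells, with harvest 24 hours after the second pulse. No untransfected cells are among the libraries. Nothing in the labels tells whether the replicates are separate cultures, and p-values therefore cover only the spread among the 5 libraries, part or all of which may be technical.

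In healthy cells the pro-survival proteins hold BAK and BAX in check on the mitochondrial surface. BH3-only proteins, made or activated under stress, bind the groove of the pro-survival proteins and can also activate the effectors, which then assemble pores. Cytochrome c leaves through these pores, joins APAF1 in the apoptosome, and caspases follow. Much of this control acts on the proteins, through cleavage, relocation and degradation, which RNA levels do not show. Neurons depend on different pro-survival members at different stages of maturity.

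The feature that the whole family shares is the BH3 core, a short helix in which a leucine (or methionine), a small residue and an aspartate recur. The codons of this core are printed because they define the family and because the BH3-only proteins share little else with the other members. They were located by searching each longest complete coding transcript of GENCODE M21 (GRCm38) for Leu or Met, 2 codons of any kind, a hydrophobic or alanine codon, Gly or Ala, Asp, and then Asp, Glu or Gly. Leucine was allowed at the 4th position after a narrower search had missed Bok. Each member held 1 match. The capitals mark the codons of the first residue, of the small residue and of the aspartate.
Bcl2: CTCcgccgggctGGGGATgac
Bcl2l1: CTGagagaggcaGGCGATgag
Bcl2l2: ATGcgggctgctGGAGACgag
Mcl1: CTGcggcgcgtgGGCGACggc
Bak1: CTTgctctcatcGGAGATgat
Bax: CTCcggcgaattGGAGATgaa
Bok: CTGctgcgcttgGGAGATgag
Bid: CTCgcccaaataGGCGATgag
Bcl2l11: CTGcggcggatcGGAGACgag
Bbc3: CTGcggcggatgGCGGACgac
The small residue is encoded by a glycine codon in 9 members and by an alanine codon in Bbc3. Bcl2l2 is the member that opens with a methionine codon. In Bok the core runs across an exon junction (chr1:93686657-93689164, plus strand, the intron included). In Bak1 it lies within 1 exon (chr17:27022537-27022557, minus strand), from codon 76 of 209.

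The targeted gene served as the check of the labels, though not a fully independent one. The deposited values had lost decimal points, and a setting used to restore them was chosen after narrower ones had left Ewsr1 unread. Ewsr1 (chromosome 11, 5069689 to 5099266, minus strand) stood at 71.7 and 72.3 RPKM in the siCtrl libraries and at 35.7, 36.3 and 37.6 RPKM in the siEwsr1 libraries. RPKM are reads scaled to exonic length and to the counted reads of the library. The decrease was significant, with a log2 fold change of -0.96 (SE 0.07, limma adjusted p = 0.0199). Leaving out siCtrl replicate 1 gave an adjusted p of 0.271, leaving out siCtrl replicate 2 gave 0.260, and leaving out siEwsr1 replicate 1 gave 0.119. The libraries held between 15045774 and 21339459 counted reads. The leading principal component, with 45.4% of variance, placed the controls at -21.2 and -28.8. It placed siEwsr1 replicates 1 and 2 at 16.5 and 33.7 and replicate 3 at -0.12, so that replicate 3 was nearest to the controls. Values without that library are given below where it changes the call of a member, a called gene or a gene of highest level in its list. They were not compiled for genes named on other grounds, namely Mycn, Gata3, Pdgfrb, Bcl2l12, Bmf, Xiap, Birc2, Naip2, Naip5 and Naip6.

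The 12 neuroblastoma and neuronal markers reported were all detected and tested, with summed levels of 969 to 987 RPKM in siCtrl and 1058 to 1161 RPKM in siEwsr1. Among them limma called Isl1 and Ina, which rose, beside 0.785% of all tested genes called higher. Voom called 4, Isl1, Ina, Mycn and Chgb, all higher, and its counts over all genes are given in the closing section. Of the 12, 2 had a log2 fold change below 0, Tubb3 (-0.26, limma adjusted p = 0.348) and Gata3 (-0.21, limma adjusted p = 0.495). Without siEwsr1 replicate 3, Tubb3 passed the test (-0.38, limma adjusted p = 0.0451), as did Chgb (0.45, limma adjusted p = 0.0232). In that setting 6.59% of all genes were called lower and 6.9% higher. Of the 5 glial markers Sox10 and S100b were at 0 in every library, as were Csf1r and Cd3e of the 5 leukocyte markers and Lum of the 7 fibroblast and mural cell markers. The fibroblast and mural sum was 3.23 to 3.44 RPKM in siCtrl and 1.15 to 1.36 RPKM in siEwsr1. That difference was carried mainly by Acta2, a smooth muscle actin gene that fell by 1.56 on the log2 scale (limma adjusted p = 0.0247). Over all tested genes 0.986% were called lower. Pdgfrb, with 5 to 28 reads, also fell (-1.20, limma adjusted p = 0.0847), and voom called Pdgfrb and Acta2. Pdgfra went the other way (0.20, limma adjusted p = 0.719). The calls of Isl1, Ina and Acta2 were lost when either control or siEwsr1 replicate 1 was left out, with limma adjusted p of 0.126 to 0.314. The part of these markers in the results below was not tested. Because the samples are bulk RNA, fewer cells of a type and less RNA per cell cannot be told apart.

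None of the 10 members passed the test between siEwsr1 and siCtrl (limma, Benjamini-Hochberg adjustment over 14908 genes, called under 0.05). Over all tested genes 264 were called, or 1.77%, with 117 higher (0.785%) and 147 lower (0.986%). At an unadjusted p under 0.05 there were 2 members, Bak1 and Bok, both lower in siEwsr1, where 20.3% of all tested genes lay under that threshold. The precision-weighted form of limma (voom) on the recovered reads called the same 2 members lower, beside 3.13% of all genes called lower. The sizes lay between -0.76 and 0.21 on the log2 scale, 3 members above 0 and 7 below. The median over the members was -0.11 and that over all tested genes was -0.01.

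**Figure D1:**
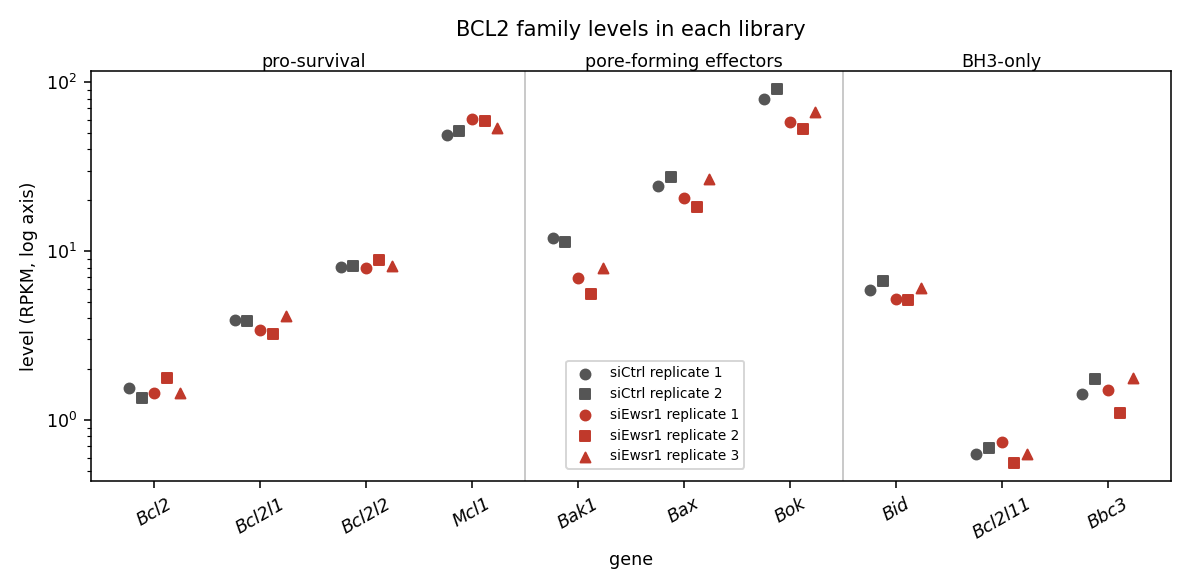
Level of each BCL2 family gene in each library, in RPKM on a log axis, with siCtrl in grey and siEwsr1 in red, and 1 symbol per replicate number. Bok and Mcl1 are highest and Bcl2l11 lowest. Bak1 and Bok in siEwsr1 lie below both siCtrl libraries and Mcl1 lies above both, while the groups overlap in the other 7 genes.

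The family spanned a wide range of levels per exon length. By mean RPKM in siCtrl the order was Bok (85.0), Mcl1 (50.04), Bax (25.8), Bak1 (11.6), Bcl2l2 (8.11), Bid (6.27), Bcl2l1 (3.88), Bbc3 (1.59), Bcl2 (1.44) and Bcl2l11 (0.658). Among neighbours in this order only Bbc3 and Bcl2 had overlapping siCtrl libraries. Bok lay in the top 3.70% of tested genes and Mcl1 in the top 6.94%, whereas Bcl2l11, with 80 to 96 reads, and Bbc3, with 48 to 66 reads, were counted least. In siEwsr1 the libraries of Bok (52.6 to 66.7 RPKM) and Mcl1 (53.3 to 60.2 RPKM) overlapped, as did those of Bak1 (5.55 to 7.94 RPKM) and Bid (5.16 to 6.01 RPKM). Bak1 ranked above Bcl2l2 in both siCtrl libraries and below it in all 3 siEwsr1 libraries.

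Among the pro-survival genes, Mcl1 differed most in level between the groups. Mcl1 (chromosome 3, 95658788 to 95663176, plus strand) encodes a short-lived protein that is turned over by the proteasome. It was measured at 48.6 and 51.5 RPKM in siCtrl and at 60.2, 58.9 and 53.3 RPKM in siEwsr1. All 3 siEwsr1 libraries lay above both controls, replicate 3 by the smallest margin. Mean levels were 50.04 ± 2.004 RPKM in siCtrl (SD, n = 2) and 57.5 ± 3.71 RPKM in siEwsr1 (SD, n = 3), a log2 fold change of 0.21 (SE 0.10, limma adjusted p = 0.270). The groups did not overlap in 3 of the 10 members, Mcl1, Bak1 and Bok, beside 39.9% of all tested genes. Genes with siEwsr1 libraries entirely above the controls were 18.6% of those tested. Without siEwsr1 replicate 3 the log2 fold change was 0.28 and passed the test (limma adjusted p = 0.0384), where 6.9% of all genes were called higher.

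Bcl2l2 (chromosome 14, 54883377 to 54888234, plus strand), which encodes BCL-W, a pro-survival protein of the nervous system, stood at 8.07 and 8.15 RPKM in siCtrl and at 7.97, 8.85 and 8.12 RPKM in siEwsr1. The groups overlapped, and the 95% interval of its log2 fold change ran from -0.18 to 0.28. Bcl2l1 (chromosome 2, 152780668 to 152831728, minus strand), the gene of BCL-XL, was measured at 3.89 and 3.88 RPKM in siCtrl and at 3.42, 3.24 and 4.12 RPKM in siEwsr1. Here siEwsr1 replicate 3 lay above both controls and the other two lay below them. The log2 fold change of Bcl2l1 was -0.10 (95% interval -0.41 to 0.21).

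Bcl2 itself (chromosome 1, 106538178 to 106714274, minus strand), the founding member of the family, was low. It reached 1.54 and 1.34 RPKM in siCtrl and 1.45, 1.77 and 1.44 RPKM in siEwsr1. Its groups overlapped, with a log2 fold change of 0.11 (95% interval -0.32 to 0.54). The smallest adjusted p among Bcl2, Bcl2l1 and Bcl2l2 was 0.699 (limma).

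The effectors held the 3 largest differences among the 10 members, all toward lower levels in siEwsr1. Bak1 (ENSMUSG00000057789, chromosome 17, 27019810 to 27029009, minus strand) encodes BAK, which resides on the mitochondrial outer membrane. It stood at 11.9 and 11.3 RPKM in siCtrl and at 6.90, 5.55 and 7.94 RPKM in siEwsr1. All 3 siEwsr1 libraries lay below both controls, and replicate 3 came closest to them. Mean levels were 11.6 ± 0.483 RPKM in siCtrl (SD, n = 2) and 6.80 ± 1.199 RPKM in siEwsr1 (SD, n = 3), a difference of -41.4%.

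The log2 fold change of Bak1 was -0.76 (SE 0.15, 95% interval -1.12 to -0.41, limma adjusted p = 0.0617), short of the threshold. Its reads numbered 250 to 469 per library, for which counting alone gives a relative error of 4.62% to 6.32%. Of all tested genes, 21.3% had siEwsr1 libraries entirely below the controls. The call depended on the fit. Bak1 was called lower by voom (adjusted p = 0.0143), with a limma variance trend on mean reads in place of mean level (adjusted p = 0.0223, 2.76% of all genes called lower), and with a filter at 50 reads (limma adjusted p = 0.0305, 2.94%). It was also called without siEwsr1 replicate 3 (log2 fold change -0.86, limma adjusted p = 0.0183, 6.59%). With 1 control left out the limma adjusted p was 0.376 or 0.395.

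**Figure D2:**
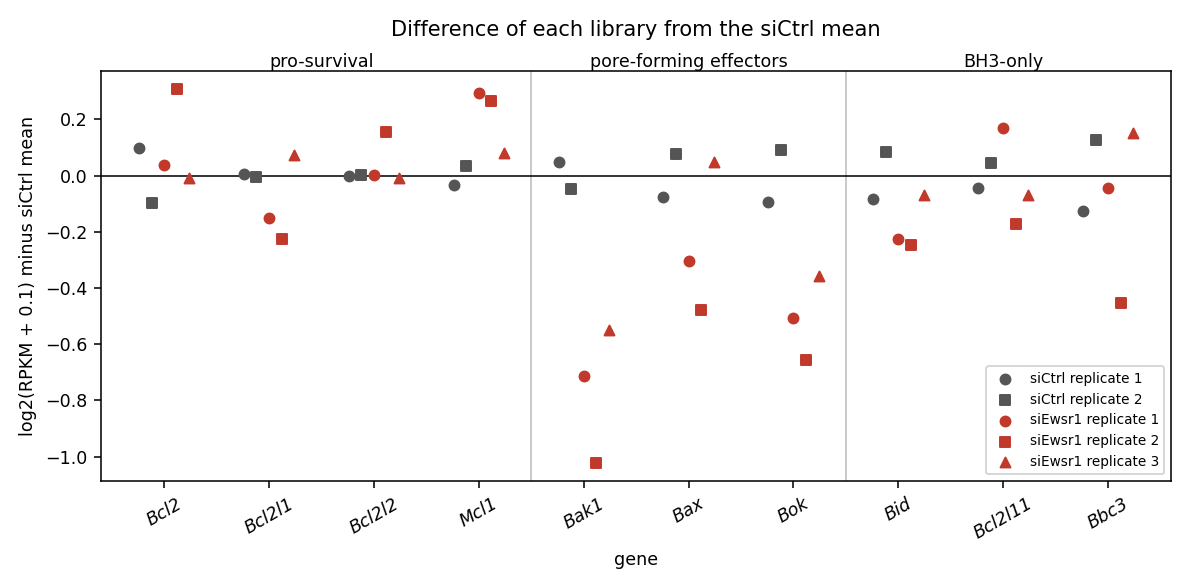
Difference of each library from the siCtrl mean on the log2(RPKM + 0.1) scale, for each BCL2 family gene, with siCtrl in grey and siEwsr1 in red. In Bak1 the siEwsr1 libraries lie at -0.71, -1.02 and -0.55, in Bok at -0.51, -0.66 and -0.36, and in Bax at -0.30, -0.48 and 0.05.

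Bok (ENSMUSG00000026278, chromosome 1, 93685660 to 93695764, plus strand) encodes an effector that is found largely at the endoplasmic reticulum and is degraded from there. It was measured at 79.2 and 90.7 RPKM in siCtrl and at 58.4, 52.6 and 66.7 RPKM in siEwsr1. As for Bak1, the groups did not overlap and siEwsr1 replicate 3 lay nearest to the controls. Mean levels were 85.0 ± 8.18 RPKM in siCtrl (SD, n = 2) and 59.3 ± 7.08 RPKM in siEwsr1 (SD, n = 3), a log2 fold change of -0.51 (SE 0.12, 95% interval -0.78 to -0.23, limma adjusted p = 0.0846). With 1618 to 2891 reads per library, Bok was far less limited by counting than Bak1. Bok was called lower by voom (adjusted p = 0.0231), with the variance trend on mean reads (limma adjusted p = 0.0299), with the 50-read filter (limma adjusted p = 0.0490) and without siEwsr1 replicate 3 (log2 fold change -0.58, limma adjusted p = 0.0208). With 1 control left out its limma adjusted p was 0.350 or 0.526.

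Bax (chromosome 7, 45461697 to 45466898, minus strand), whose protein moves from the cytosol to mitochondria on activation, stood at 24.3 and 27.3 RPKM in siCtrl and at 20.5, 18.1 and 26.9 RPKM in siEwsr1. Replicates 1 and 2 of siEwsr1 lay below both controls, and replicate 3 lay between them. The log2 fold change of Bax was -0.24 (SE 0.16, 95% interval -0.62 to 0.13, limma adjusted p = 0.431). Without siEwsr1 replicate 3 it was -0.39 and passed the test (limma adjusted p = 0.0451), where 6.59% of all genes were called lower.

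The 3 BH3-only genes did not separate the groups. Bid (chromosome 6, 120891930 to 120916853, minus strand), whose protein is cleaved by caspase 8 and so links death receptors to mitochondria, was measured at 5.88 and 6.67 RPKM in siCtrl and at 5.24, 5.16 and 6.01 RPKM in siEwsr1. Its log2 fold change was -0.18 (95% interval -0.45 to 0.09, limma adjusted p = 0.415). Only replicate 3 of siEwsr1 reached the range of the controls.

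Bcl2l11 (chromosome 2, 128126038 to 128162547, plus strand) encodes BIM, a BH3-only protein induced on withdrawal of trophic factors in neurons. It stood at 0.632 and 0.683 RPKM in siCtrl and at 0.737, 0.560 and 0.627 RPKM in siEwsr1, a log2 fold change of -0.02 (95% interval -0.55 to 0.50). Bbc3 (chromosome 7, 16308393 to 16318205, plus strand) encodes PUMA, a target of p53. It reached 1.43 and 1.74 RPKM in siCtrl and 1.502, 1.10 and 1.78 RPKM in siEwsr1, a log2 fold change of -0.12 (95% interval -0.65 to 0.42). Both log2 fold changes turned above 0 in some fits with 1 library left out, reaching 0.06 for Bcl2l11 and 0.07 for Bbc3 without siEwsr1 replicate 2, and none of these fits called either gene.

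Set against each other by role, the pro-survival sum was higher and the pro-death sum lower in every siEwsr1 library than in either control. The 4 pro-survival genes summed to 62.1 and 64.8 RPKM in siCtrl and to 73.1, 72.8 and 66.9 RPKM in siEwsr1. The 6 pro-death genes summed to 123 and 138 RPKM in siCtrl and to 93.3, 83.2 and 110.001 RPKM in siEwsr1. The ratio of the sums was thus 0.503 and 0.468 in siCtrl and 0.783, 0.875 and 0.608 in siEwsr1.

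These sums describe few genes. Mcl1 made up 78.3% to 82.4% of the pro-survival sum, and Bok 60.7% to 65.6% of the pro-death sum. With Bok left out, the ratio was 1.40 and 1.36 in siCtrl and 2.10, 2.38 and 1.55 in siEwsr1, and the groups remained apart. Of the genes still in that ratio, only Mcl1 and Bak1 had groups that did not overlap. The groups overlapped in Bcl2, Bcl2l1 and Bcl2l2, the pro-survival genes beside Mcl1, and in Bax and the BH3-only genes. A ratio without Mcl1 or Bak1 was not computed. On a scale that gives every gene equal weight, the median log2 fold change was 0.08 over the pro-survival genes and -0.21 over the pro-death genes, beside -0.01 over all tested genes. The difference of these role medians was 0.29. Leaving out siCtrl replicate 2 gave 0.16. Leaving out siEwsr1 replicate 2 gave 0.14, and leaving out replicate 3 of that group gave 0.44. No p is given for these summaries because the genes were chosen, and with 2 libraries against 3 the smallest exact permutation p, two-sided, is 0.1.

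**Figure D3:**
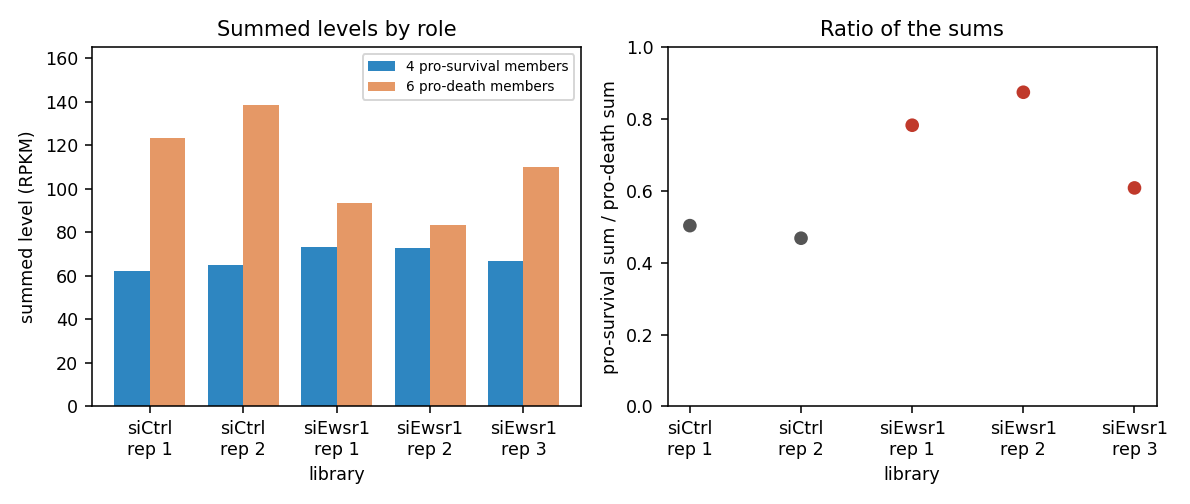
Left, summed RPKM of the 4 pro-survival genes (blue) and of the 6 pro-death genes (orange) in each library. Right, ratio of the sums per library, between 0.468 and 0.503 in siCtrl (grey) and between 0.608 and 0.875 in siEwsr1 (red), with siEwsr1 replicate 3 nearest to the controls.

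Annotated structure limits what a gene-level value can say about Bak1. GENCODE M21 lists 4 Bak1 transcripts, of which 2 are annotated as subject to nonsense-mediated decay. One of these holds, beside the exons of the coding form, a microexon of 20 bases (chr17:27021663-27021682, minus strand), a length that is not a multiple of 3. In mouse neurons inclusion of a Bak1 microexon is known to lower BAK protein. The junction is printed in both forms because the gene-level counts add them together. Capitals mark the microexon.
With the microexon: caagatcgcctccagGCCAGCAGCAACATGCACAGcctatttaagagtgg
Without the microexon: caagatcgcctccagcctatttaagagtgg
The deposited values hold 1 number per gene, so inclusion of the microexon was not measured here.

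Some exons of the family overlap other genes, and the strand setting of the counting is not given in the sources used here. Bak1 shares 437 of its 2407 exonic bases with Ggnbp1 on the opposite strand, and that Ggnbp1 entry stood at 0.108 to 0.299 RPKM. A second annotated Ggnbp1 entry on the opposite strand shares 177 bases with Bak1, and no level was available for it. Bid shares 628 bases with Bcl2l13 on the opposite strand, a family gene at 8.65 to 11.0 RPKM. Bcl2l2 and Bax share 594 and 192 bases with annotated genes on the same strand, and Bcl2 shares 558 bases with an antisense gene. The values of these 5 members are uncertain to that extent, and Bok and Mcl1 had no such overlap.

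Of the 15 other BCL2 family genes, 6 were tested and none was called by limma or voom. The unadjusted p was under 0.05 for 2 of them, beside 20.3% of all tested genes. These were Bcl2l12 (log2 fold change -1.08, limma adjusted p = 0.133) and the BH3-only gene Bmf (-0.60, limma adjusted p = 0.156). Bad, a BH3-only gene controlled by phosphorylation, was the highest over all libraries. Its mean was 12.3 RPKM in siCtrl and 10.4 RPKM in siEwsr1 (log2 fold change -0.23, limma adjusted p = 0.328). In siEwsr1 alone Bnip3l stood higher than Bad, at a mean of 11.3 RPKM. Bnip3l, which marks mitochondria for autophagy, had a log2 fold change of 0.22 (limma adjusted p = 0.421). It passed the test without siEwsr1 replicate 3 (0.35, limma adjusted p = 0.0433), where 6.9% of all genes were called higher. The 9 untested genes had at most 18 reads in any library, and the 3 Bcl2a1 genes listed were at 0 throughout. Pmaip1, the gene of NOXA, had at most 1 read.

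Downstream of the pore, 11 genes are reported, and none of these was called by limma or voom. At an unadjusted p under 0.05 there was 1, Cycs, beside 20.3% of all tested genes. Cycs, the gene of cytochrome c, was measured at 67.3 and 69.0 RPKM in siCtrl and at 91.3, 80.4 and 82.4 RPKM in siEwsr1. The groups did not overlap, and 18.6% of all tested genes had siEwsr1 libraries entirely above the controls. The log2 fold change of 0.33 did not pass (limma adjusted p = 0.124). It passed without siEwsr1 replicate 3 (0.36, limma adjusted p = 0.0400), where 6.9% of all genes were called higher. Htra2, a mitochondrial protease that is released with cytochrome c, had a log2 fold change of -0.17 (limma adjusted p = 0.579), and its groups overlapped. Without siEwsr1 replicate 3 Htra2 passed the test (-0.32, limma adjusted p = 0.0318), where 6.59% of all genes were called lower. The median log2 fold change over the 11 apoptosome, caspase and mitochondrial factor genes reported was 0.16, with 10 above 0. Over all 14908 tested genes the median was -0.01, with 7204 above 0.

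The inhibitors of apoptosis, several of which bind caspases, held 9 genes, of which 8 were tested and none was called by limma or voom. At an unadjusted p under 0.05 there were 4, beside 20.3% of all tested genes. Xiap, Birc2 and Birc5 of these were higher in siEwsr1, and Naip2 was lower. Birc5, the gene of survivin, which also acts in cell division, was the highest at 35.2 ± 0.561 RPKM (SD, n = 2) in siCtrl and 40.6 ± 1.41 RPKM (SD, n = 3) in siEwsr1 (limma adjusted p = 0.177). The giant ubiquitin ligase gene Birc6 had a log2 fold change of 0.10 (limma adjusted p = 0.524). The median over the list was 0.10, with 7 genes above 0, as were 7204 of all 14908 tested genes. Naip2, Naip5 and Naip6 are closely related copies, between which reads may be split.

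Among 18 genes of partners and regulators of BCL2 family proteins, 17 were tested. Limma called 2 of them, Api5 and Ei24, both higher, beside 0.785% of all tested genes called higher. Both were on the list because of earlier results of these data, so their count supports nothing about the list. At an unadjusted p under 0.05 there were 5, Api5 and Ei24 included and not all of them higher, beside 20.3% of all tested genes. Api5, whose protein is described as an inhibitor of apoptosis, stood at 38.4 and 34.7 RPKM in siCtrl and at 80.7, 78.7 and 69.6 RPKM in siEwsr1 (log2 fold change 1.07, SE 0.11, limma adjusted p = 0.0247). Ei24, a p53-induced gene of the endoplasmic reticulum, stood at 3.53 and 3.36 RPKM in siCtrl and at 7.39, 8.16 and 7.89 RPKM in siEwsr1 (log2 fold change 1.17, SE 0.10, limma adjusted p = 0.0228).

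In both genes the siEwsr1 libraries lay far above the controls, replicate 3 included. Each lost its call when either control or siEwsr1 replicate 1 was left out, with limma adjusted p of 0.271 and 0.278 for Api5 and for Ei24 without a control, and of 0.126 for Api5 and 0.119 for Ei24 without siEwsr1 replicate 1. The channel genes Vdac1 and Vdac3, whose products sit beside BAK and BAX in the outer membrane, were the highest of the list over all libraries, with mean siCtrl levels of 159 and 123 RPKM and mean siEwsr1 levels of 158 and 117 RPKM. Neither passed the test, with log2 fold changes of 0.01 and -0.05. The median over the list was 0.06.

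**Figure D4:**
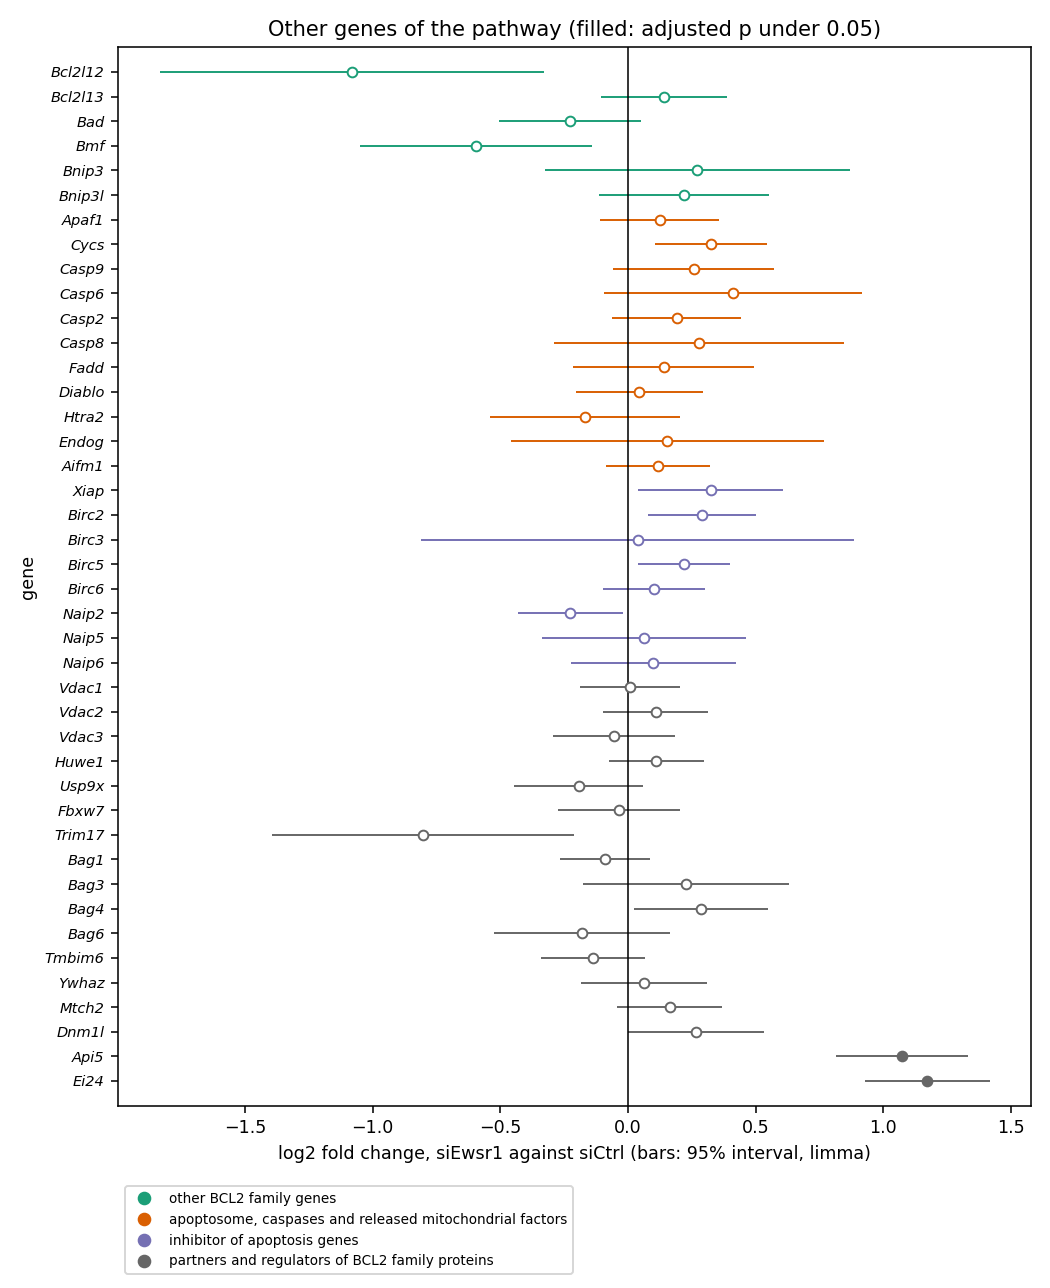
Log2 fold change of siEwsr1 against siCtrl for 42 tested genes of the other pathway lists, with 95% intervals from limma, coloured by list. Filled points passed the adjusted p of 0.05, which were Api5 and Ei24 (both higher), and open points did not.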

How the data were processed

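Total RNA depleted of ribosomal RNA was sequenced from N2a cells with a stranded kit, per the labels' protocols. Per the submitters' processing notes, the tools were STAR 2.5.2b, featureCounts 1.5.1 and edgeR, the last without a version, and the build was GRCm38. The labels give the siRNA concentration as 100 µM, which may be a slip of the unit. The authors deposited 1 file per library with no unit named. The values behave as RPKM, but those of 1 or more had lost their decimal point, so the deposited unit was recorded as other. The decimal position was restored by requiring that value, exonic length (GENCODE M21) and counted reads give whole reads. Of 27255 genes above 0, 27139 were kept, and 98.5% to 98.6% of the intact values came out whole within 1e-06 reads. Per library, the recovered reads differed from the counted total by at most 0.112%. All 10 members used the GENCODE length. In Mcl1, Bax and Ewsr1, 1 library was read above the lowest possible position. The assumed spread between libraries (SD 0.6, log2) was set after narrower values had left Ewsr1 unread. In simulated data for siEwsr1 against siCtrl (12000 genes), the reading was correct for 48 of 48 kept genes at 2-fold but for 18 of 46 at 10-fold, and differences near 10-fold may be misread.

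The test was limma 3.58.1 (R 4.3.3) on log2(RPKM + 0.1), which understates changes of low genes, after trimmed-mean scaling, for genes that reached 10 reads, scaled to the median library size, in 2 or more libraries. The group was the only term, with robust moderation and the standard variance trend on mean level. A trend on mean reads, which comes closer to earlier processing of these data and calls more genes, was used for a time as the main fit after both results had been seen. It was then returned to an alternative, because the design named the standard trend. In simulated data for the same comparison (14598 genes), limma called 0 of 49 genes changed by 1.2-fold and 7 of 49 by 1.5-fold. It called 20 of 50 genes changed by 2-fold and 40 of 48 by 4-fold. Genes not called are therefore not shown to be unchanged. Intervals of single counts cover counting error only. The members and lists were chosen with earlier results of these data known. Named are all members, Ewsr1 and, in each list, every called gene and the 2 with the highest mean RPKM. Bcl2l12, Bmf, Xiap, Birc2 and Naip2 are named for their unadjusted p. Pmaip1, Naip5, Naip6, Mycn, Gata3, Pdgfrb and the markers at 0 were named after their values were seen. A few genes of the lists are not reported here, and counts and medians of lists leave them out.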

Additional observations from a re-analysis of the deposited data

How the results depend on the processing

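Scaling by library totals or by median-of-ratios and pseudocounts of 1 and 0.01 left no member called, as in the main result. The lowest decimal position called none of the 8 members it keeps, Mcl1 and Bax being left out by it. Mcl1, Bak1, Bax and Bok, the members called under any setting, kept their direction in all settings run, while Bbc3 and Bcl2l11, never called, changed sign without some libraries. The filter at 50 reads called 2 members (Bak1 -0.76, Bok -0.51), beside 334 genes lower and 265 higher. The variance trend on mean reads and voom, both chosen after seeing the data, also called 2 each, with Bak1 at -0.76 and -0.78 and Bok at -0.51 and -0.51, beside 411 lower and 355 higher and 467 lower and 361 higher. The lowest decimal position alone gave 62 lower and 48 higher over all genes. Ewsr1 stayed at -0.96 but missed the threshold with no filter (limma adjusted p = 0.0709) and without trend and robust moderation (0.0711), and both of these settings called 0 genes in either direction. The cause was not tested. Leaving out 1 library gave 0 to 959 genes lower and 0 to 1005 higher, 0 to 3 members lower and 0 to 1 higher. The extremes came without siEwsr1 replicate 3, and 0 calls came without either control or siEwsr1 replicate 1. The ranges of log2 fold change were -0.86 to -0.62 for Bak1, -0.59 to -0.40 for Bok, -0.39 to -0.11 for Bax, 0.19 to 0.28 for Mcl1 and -0.97 to -0.94 for Ewsr1. Where 1 control was left, it was assumed to vary like the other group. With 1 library left out, the difference of role medians lay between 0.14 and 0.44. The log2 difference in the ratio of summed levels was 0.62 and lay between 0.51 and 0.77. Replicate numbers 1 and 2 occur in both groups, and same-numbered libraries deviated with correlations of 0.03 and -0.12, so they were not treated as paired. The replicate block called 1 member, Bak1 (-0.87, limma adjusted p = 0.0379), beside 180 genes lower and 172 higher, and in it siEwsr1 replicate 3 has a block of its own and adds nothing. Planned edgeR and DESeq2 tests were not run, because the deposited values are not counts. Voom was the only test run on the recovered reads.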
